A study of Mus musculus with 6 samples.

Results

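A set of 10 genes of bile acid synthesis, conjugation, transport and feedback was examined in primary murine hepatocytes. They were picked by name from the 41388 Ensembl genes of the deposited table, whose identifiers were matched to GENCODE M21 symbols, and all 10 were found. The cells came from C57BL/6J mice, were freed by collagenase and equilibrated overnight in growth medium, and were then treated with adenovirus, at about 1000000 particles per 1000000 cells, for 24 h. The control group (β-gal, replicates 1, 2 and 3) received virus encoding beta galactosidase and the other group (Aloxe3, replicates 7, 8 and 9) received virus encoding ALOXE3, a lipoxygenase, with 3 libraries in each. Both groups therefore carry an adenovirus and an overexpressed protein, and neither represents untouched hepatocytes. The sources used here do not give the promoter in the virus, and do not say whether the libraries came from separate mice or cultures, so p-values measure only the spread between these libraries.

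Bile acids are made from cholesterol in hepatocytes. In the classic pathway Cyp7a1 sets the rate, while the alternative pathway opens with the mitochondrial sterol hydroxylase Cyp27a1 and continues with the oxysterol hydroxylase Cyp7b1, and Cyp8b1 directs intermediates toward cholic acid. Slc27a5 attaches coenzyme A to the finished acid and Baat replaces it with taurine or glycine. Slc10a1 (NTCP) and Slco1b2 (an organic anion transporter) take bile acids up from blood, Abcb11 (BSEP) pumps them into the canaliculus, and Nr0b2 (SHP) is the repressor through which bile acids shut down their own synthesis. Several of these genes are known to fall when hepatocytes are kept in culture.

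The libraries held 25521908 to 32431318 reads, as derived from the steps between deposited values, and levels are given as RPKM (reads scaled by gene length and library size), which can be compared between genes. Aloxe3 itself rose from 1.95 ± 0.18 RPKM in controls to 48.1 ± 7.32 RPKM with its virus (SD, n = 3 each; adjusted p = 4.74e-06 from limma). Of the 10 hepatocyte markers, 5 were abundant in all 6 libraries, namely Alb (4360 to 4550 RPKM), Apob (232 to 255 RPKM), Ttr (99.4 to 131 RPKM), Trf (98.8 to 113 RPKM) and Serpina1a (47.9 to 53.5 RPKM). The other 5 were far lower, with Cyp2e1 at 2.03 to 2.86 RPKM, Asgr1 at 1.46 to 2.27, Cps1 at 0.915 to 1.64, Tat at 0.193 to 0.661 and G6pc at 0.0128 to 0.157 RPKM. Among these 10 markers 5 had groups without overlap, in both directions, where 14.3% of the 24989 genes with reads showed this. Of the 10, 8 were high enough to be tested, and over all 12693 tested genes the share was 19.9%. Ttr was lower with Aloxe3 (log2 difference -0.30, adjusted p = 0.0448 from limma). This lay just inside the threshold, and Ttr was not examined with a library left out. Serpina1a (-0.11, adjusted p = 0.262), Trf (0.14, adjusted p = 0.264) and Cps1 (0.33, adjusted p = 0.161) did not pass the threshold in limma. Tat, higher in each Aloxe3 library (0.438 to 0.661 RPKM against 0.193 to 0.346), was too low to be tested. Aloxe3 replicate 9 stood apart over the genes with enough derived reads in a pair of replicates (14244 to 14486 genes by pair). The pairs that hold it had a chi-square statistic of 8.99 and 9.82 per degree of freedom, and the other pairs 3.47 to 5.46. All 6 markers fixed for the bile duct cell were detected and 3 of them were high, namely Spp1 (1430 to 1640 RPKM), Krt19 (32.9 to 51.0 RPKM) and Sox9 (38.3 to 49.3 RPKM), while Epcam, Krt7 and Cftr stayed at or under 0.456 RPKM. The summed bile duct list ranged from 1510 to 1590 RPKM with β-gal and from 1580 to 1720 RPKM with Aloxe3, nearly all of it Spp1. Epcam alone of this list had groups without overlap, and was lower (0.398 to 0.456 against 0.154 to 0.334 RPKM). It rested on 24 to 30 derived reads with β-gal and 8 to 19 with Aloxe3, and was too low to be tested. The summed hepatocyte list of 10 genes ranged from 5030 to 5070 and from 4860 to 5030 RPKM. The sums of 6 markers each were 4.19 to 5.92 RPKM for Kupffer cells, 24.5 to 28.7 RPKM for sinusoidal endothelial cells and 3.39 to 3.94 RPKM for stellate cells, whose marker Lrat was listed at 0 in every library. In bulk RNA, fewer cells of a type and less RNA per cell cannot be told apart, and the part of other cells in the levels below was not tested.

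The start regions of 3 members are shown because these genes mark the top of the levels (Cyp27a1), a trace level (Cyp8b1) and the largest log2 difference among tested members (Nr0b2). The 60 bases before the RefSeq start (GRCm38.p6) are written 5′ to 3′ on the gene's strand, with the letters TATAAA in capitals. They lie at chr1:74713475-74713534 (forward strand), chr9:121916306-121916365 (reverse strand) and chr4:133553316-133553375 (forward strand).
Cyp27a1: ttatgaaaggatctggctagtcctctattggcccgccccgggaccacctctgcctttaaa
Cyp8b1: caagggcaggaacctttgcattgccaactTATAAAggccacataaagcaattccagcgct
Nr0b2: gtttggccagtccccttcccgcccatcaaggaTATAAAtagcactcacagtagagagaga
In these windows TATAAA began 31 bases before the start of Cyp8b1 and 28 bases before that of Nr0b2, and did not occur before Cyp27a1. Over windows from 250 bases before to 50 after the start, TATAAA was found on either strand in 4 of the 7 windows of the 6 members with a sequence (1 each of Cyp8b1, Nr0b2, Slc10a1 and Slco1b2) and in 13.6% of all 32851 windows. The letters TCAAGGTCA and TCAAGGCCA, bound by LRH-1, were in 0 of these 6 members on either strand and in 0.423% and 0.591% of all windows. A direct-repeat HNF4 motif and an inverted-repeat FXR motif were likewise in 0 of the 6, and in at most 0.0396% of all windows. No match says only that these letters are not in the window. Cyp7a1, Cyp7b1, Baat and Slc27a5 had no entry in the sequence table.

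**Figure D1:**
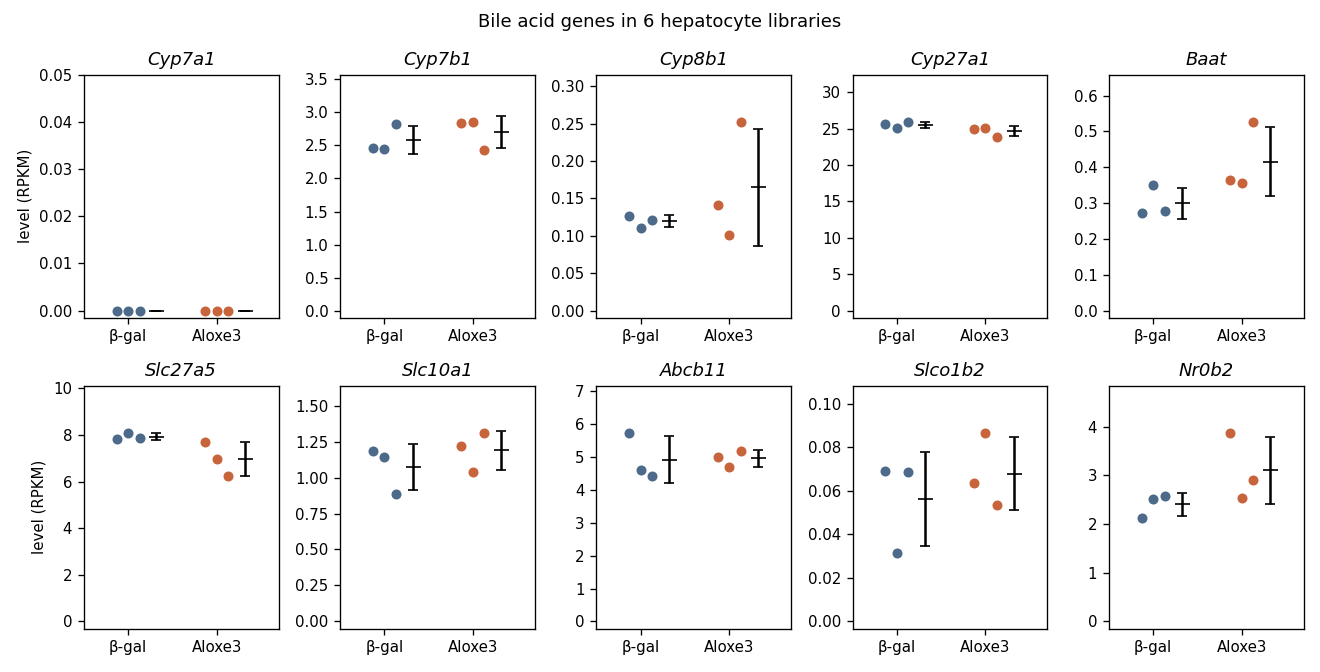
Level of each of the 10 members in RPKM (linear axes from 0, a separate scale for each gene), with 1 point per library in replicate order and the mean ± SD (n = 3) beside each group. Cyp7a1 sits at 0 throughout, Slc27a5 is the lower of the members without overlap between groups (7.85 to 8.10 RPKM with β-gal, 6.25 to 7.69 with Aloxe3), and Baat the higher.

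Among the synthesis enzymes the members spanned the whole range from abundant to undetected, in the same order in both groups. Cyp27a1 (chromosome 1, 74713574 to 74737892) was the highest of the 10 members and took 56.8% of their summed level with β-gal and 55.7% with Aloxe3. Its level was 25.6, 25.03 and 25.9 RPKM in the β-gal libraries and 24.9, 25.1 and 23.8 RPKM in the Aloxe3 libraries, so that the groups overlapped only through β-gal replicate 2 and Aloxe3 replicate 8. The means were 25.5 ± 0.446 and 24.6 ± 0.704 RPKM (SD, n = 3 each), a difference of -0.05 on the log2(RPKM + 1) scale (SE 0.0364, 95% interval -0.13 to 0.04, adjusted p = 0.599 from limma), or -0.03 without Aloxe3 replicate 9. With β-gal it stood at percentile 90.7 of the 24989 genes that had any reads. It was also among the most even members, with a coefficient of variation between libraries of 1.7% and 2.9%, where read counting alone would give 2.4% and 2.6%.

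Cyp7b1 (chromosome 3, 18071950 to 18243338), which acts on the oxysterols that Cyp27a1 makes, was about an order of magnitude lower. It had 2.46, 2.45 and 2.83 RPKM with β-gal and 2.84, 2.86 and 2.43 RPKM with Aloxe3. Both groups held values near 2.4 and near 2.8 RPKM and overlapped. The difference was 0.05 (SE 0.0693, 95% interval -0.11 to 0.21, adjusted p = 0.799 from limma), and it ranged from 0.02 without Aloxe3 replicate 8 to 0.11 without replicate 9. The ratio of Cyp27a1 to Cyp7b1 within a library was 9.93 ± 0.67 with β-gal and 9.13 ± 0.59 with Aloxe3 (SD, n = 3 each).

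Cyp8b1 (chromosome 9, 121914356 to 121916305), a gene of a single exon, was present only at a trace. Its level was 0.127, 0.111 and 0.121 RPKM with β-gal, from 7 or 8 reads each, and 0.141, 0.101 and 0.252 RPKM with Aloxe3, from 7, 6 and 13 reads. Aloxe3 replicate 9 stood above the other libraries, while replicate 8 was the lowest of all 6. The means were 0.12 ± 0.00835 and 0.165 ± 0.0783 RPKM (SD, n = 3 each), and counting alone gives a coefficient of variation of 36.9% and 34.0% at such read numbers. A difference of this size was not detectable at this depth.

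Cyp7a1 (chromosome 4, 6265612 to 6275633), the gatekeeper of the classic pathway, was listed at 0 in all 6 libraries. With the 4174 exon bases of GENCODE M21, 3 reads, taken as the limit that a count of 0 allows, would be 0.0222 to 0.0282 RPKM. This limit covers counting error only. Set against that limit in each library, Cyp27a1 was at least 876-fold higher, Cyp7b1 at least 89.3-fold higher and Cyp8b1 at least 4.28-fold higher. Thus neither group gave a fold change for Cyp7a1, and the planned ratios to it could not be formed.

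In conjugation the pair of members were far apart in level, and lay on opposite sides between groups. Slc27a5 (chromosome 7, 12988346 to 12998192), the bile acid-CoA ligase, had 7.85, 8.10 and 7.85 RPKM with β-gal and 7.69, 6.96 and 6.25 RPKM with Aloxe3. Every Aloxe3 library lay below every β-gal library, by a small margin in replicate 7 and a wider one in replicate 9. The mean was 7.93 ± 0.142 RPKM against 6.97 ± 0.72 RPKM (SD, n = 3 each), a ratio of 0.878 and a log2 difference of -0.17 (SE 0.0657, 95% interval -0.32 to -0.02). This did not pass the threshold (p = 0.0344 unadjusted, adjusted p = 0.351 from limma; p = 0.1 in a two-sided exact permutation test, which cannot go lower with 3 libraries against 3). The coefficient of variation was 1.8% between β-gal libraries and 10.3% between Aloxe3 libraries, against 4.0% and 4.6% from counting alone. Without replicate 9 the difference was -0.10 (adjusted p = 0.461), a move of over 1.5 times, and without Aloxe3 replicate 7 it was -0.23 (adjusted p = 0.209).

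Baat (chromosome 4, 49489422 to 49506557), the amino acid transferase, had 0.271, 0.349 and 0.279 RPKM with β-gal and 0.363, 0.356 and 0.526 RPKM with Aloxe3, from 16 to 27 reads per library. The groups did not overlap, but Aloxe3 replicates 7 and 8 lay close to β-gal replicate 2 and only replicate 9 stood clear. With means of 0.3 ± 0.0431 and 0.415 ± 0.0963 RPKM (SD, n = 3 each) it was too low for the test over all genes, which required a mean of 0.5 RPKM, and in the fit without that requirement the difference was 0.12 (SE 0.059, adjusted p = 0.602 from limma). Within a library, Slc27a5 exceeded Baat 28.9, 23.2 and 28.2 times with β-gal and 21.2, 19.5 and 11.9 times with Aloxe3. The ratio was lower in each Aloxe3 library than in each β-gal library, and lowest in replicate 9. With Slc27a5 lower and Baat higher in each Aloxe3 library, the ratio had to be lower too, and it adds no further support.

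The 3 transporters showed overlapping groups. Abcb11 (chromosome 2, 69238282 to 69342616), the canalicular export pump, had 5.73, 4.61 and 4.41 RPKM with β-gal and 5.002, 4.69 and 5.18 RPKM with Aloxe3, and the β-gal libraries held both its highest and its lowest values. The difference was 0.02 (SE 0.0844, 95% interval -0.18 to 0.21, adjusted p = 0.955 from limma). It was 0.11 without β-gal replicate 1, -0.02 without replicate 2, -0.05 without replicate 3 and -0.01 without Aloxe3 replicate 9, so its sign rested on single libraries. Exons of Gm13613 and Gm13614 on the other strand overlap 136 and 19 of the 5146 exon bases of Abcb11. Reads from there may have been lost in counting.

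Slc10a1 (chromosome 12, 80953183 to 80968705), the sodium-coupled uptake carrier, had 1.18, 1.14 and 0.889 RPKM with β-gal and 1.22, 1.04 and 1.31 RPKM with Aloxe3. β-gal replicate 3 was the lowest and Aloxe3 replicate 9 the highest, with the other libraries intermingled. The difference was 0.08 (SE 0.0816, 95% interval -0.11 to 0.27, adjusted p = 0.719 from limma), and it ranged from 0.02 without β-gal replicate 3 to 0.13 without Aloxe3 replicate 8. Relative to Abcb11 in the same library it stood at 0.219 ± 0.025 with β-gal and 0.239 ± 0.016 with Aloxe3 (SD, n = 3 each), so the exporter's level was several times that of the importer in every library.

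Slco1b2 (chromosome 6, 141629518 to 141686646), the organic anion uptake carrier, was the lowest member with any reads. It had 0.0692, 0.0313 and 0.0686 RPKM with β-gal and 0.0636, 0.0868 and 0.0537 RPKM with Aloxe3, from 5 to 13 reads per library. The groups overlapped, and no difference was detectable at this depth.

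Nr0b2 (chromosome 4, 133553376 to 133556536), the bile acid-induced repressor, had the largest log2 difference among the 6 tested members. Its level was 2.14, 2.51 and 2.57 RPKM with β-gal and 3.88, 2.53 and 2.91 RPKM with Aloxe3. Replicate 7 stood well above all others, whereas replicate 8 lay between β-gal replicates 2 and 3, so the groups overlapped. The means were 2.4 ± 0.234 and 3.1 ± 0.695 RPKM (SD, n = 3 each), a ratio of 1.29 and a log2 difference of 0.26 (SE 0.117, 95% interval -0.01 to 0.53, adjusted p = 0.413 from limma). Without replicate 7 the difference was 0.13 (adjusted p = 0.524), and between Aloxe3 libraries the coefficient of variation was 22.4% against 10.2% from counting alone.

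Of the 10 members, 6 were high enough for the test over all genes, 3 had reads but lay under 0.5 RPKM on average, and Cyp7a1 was at 0. Of the 6, 0 passed an adjusted p of 0.05 in limma, where 0.394% (50) of all 12693 tested genes did, a number that fell to between 6 and 19 with any 1 library left out. Of the same 6, 1 (Slc27a5) had an unadjusted p under 0.05, where 12.7% of all genes did and 5.42% were also lower. The voom fit of limma on derived reads also called 0 of the 6, where it called 174 genes (1.37%). Groups without overlap were found for 1 of the 6 (Slc27a5, lower), a share of 16.7% that lies near the 19.9% over all tested genes (8.71% lower), and for 2 of the 9 with reads (Slc27a5 and Baat), where 14.3% of the 24989 genes with reads showed this. Their median log2 difference was 0.033, with 4 above and 2 below 0, against a median of 0.005 over all tested genes. Among them the widest intervals were those of Nr0b2 and Abcb11, and the narrowest was that of Cyp27a1.

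**Figure D2:**
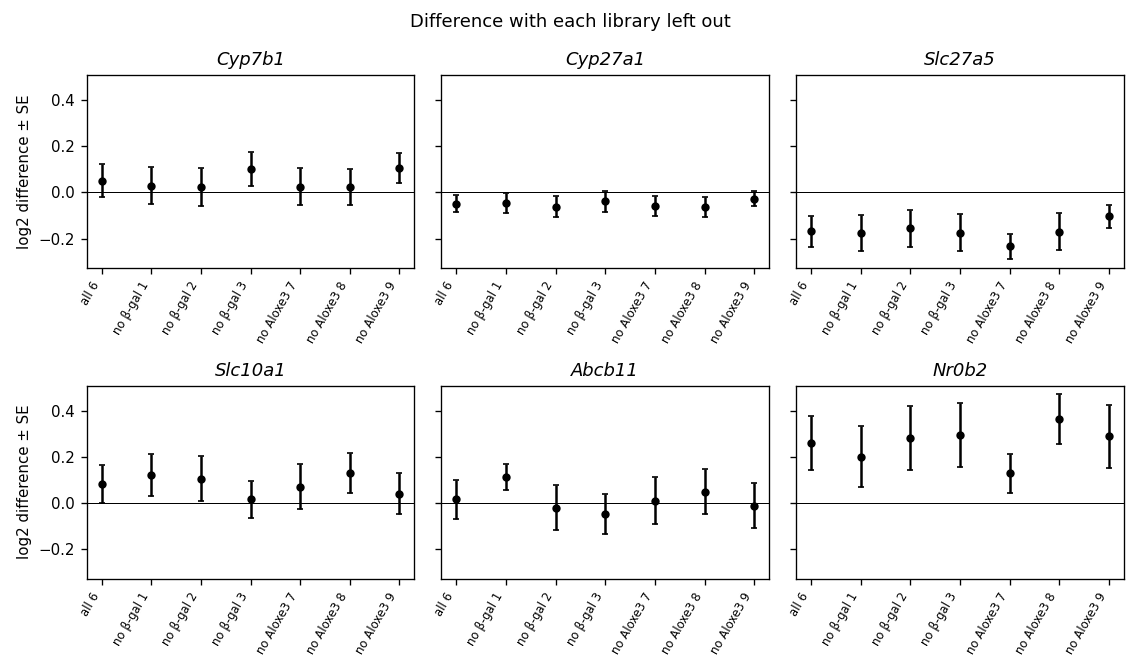
Difference in mean log2(RPKM + 1), Aloxe3 minus β-gal, ± SE for the 6 tested members with all 6 libraries and with each library left out in turn (a group of 2 is then fitted with the spread shared over both groups). Slc27a5 stayed below 0 (-0.23 to -0.10) and Nr0b2 above 0 (0.13 to 0.36), while Abcb11 lay on both sides (-0.05 to 0.11).

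The order of levels was nearly the same in both groups, running from Cyp27a1 through Slc27a5 and Abcb11 to the pair Cyp7b1 and Nr0b2, and then Slc10a1, Baat, Cyp8b1, Slco1b2 and Cyp7a1. Only Cyp7b1 and Nr0b2 overlapped as neighbours, and they changed places, at 2.58 and 2.4 RPKM in the control group and 2.71 and 3.1 RPKM in the Aloxe3 group. All other neighbours had ranges over libraries that did not overlap within a group. The steps between them were 3.22 times from Cyp27a1 to Slc27a5 and 3.57 times from Slc10a1 to Baat with β-gal.

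The other genes of the pathway were followed through a list of 48, in 3 groups of 16 by role. Of these, 34 were tested, 0 passed an adjusted p of 0.05 in limma, and 7 had an unadjusted p under 0.05, all of them higher with Aloxe3. This is 20.6% of the 34, where 12.7% of all genes had such a p and 7.31% were also higher. With voom 1 of the 34 (Abcb4) passed, against 1.37% of all genes. The median log2 difference of the 34 was 0.039, with 22 above and 12 below 0, where 6647 of all tested genes lay above and 6046 below. Groups without overlap were found for 23.5% of the 34 (7 higher and 1, Hsd17b4, lower), where 19.9% of all tested genes showed this. Most genes named below were picked for a small p or after their values were seen, so the choice itself favoured separated groups.

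**Figure D3:**
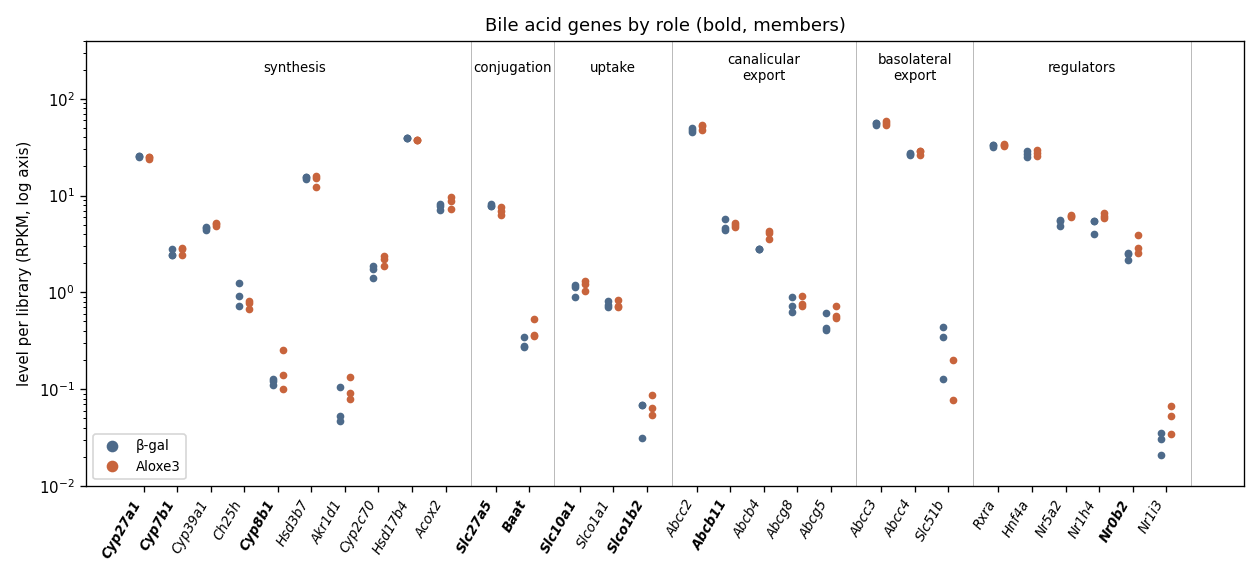
Level in each library (RPKM, log axis) of 9 members and 20 other bile acid genes by role, β-gal in blue and Aloxe3 in orange, members in bold; values of 0 (Cyp7a1, and 1 library of Slc51b) cannot be drawn. The multidrug pumps Abcc2, Abcc3 and Abcc4 lie at 26.3 to 59.0 RPKM, more than an order of magnitude above the 3 uptake carriers drawn (Slc10a1, Slco1a1 and Slco1b2).

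Among synthesis and conjugation genes 12 of 16 were tested, 6 of them above and 6 below 0. Slc27a2, which encodes an acyl-CoA synthetase that can activate bile acid precursors, had 1.83, 2.07 and 1.99 RPKM with β-gal and 2.65, 2.28 and 2.29 RPKM with Aloxe3. All Aloxe3 libraries were above all β-gal libraries, with a difference of 0.20 (SE 0.0641, adjusted p = 0.291 from limma), although exons of Gm26697 on the other strand overlap this gene. Cyp2c70, which makes the muricholic acids of the mouse, had 1.42, 1.88 and 1.72 RPKM with β-gal and 2.39, 1.89 and 2.20 RPKM with Aloxe3. Its groups were parted by a narrow gap, and the difference was 0.24 (SE 0.0866, adjusted p = 0.324 from limma). It belongs to a large gene family, and reads from near-identical stretches can be lost when only unique alignments are counted. Akr1d1, the reductase that shapes the steroid ring of bile acids, lay at 0.0464 to 0.134 RPKM, a trace like that of Cyp8b1.

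Among transporters 10 of 16 were tested, 8 above and 2 below 0. Abcb4 (MDR2), the flippase that supplies phosphatidylcholine to bile, had the smallest p of all bile acid genes examined. Its level was 2.78, 2.82 and 2.83 RPKM with β-gal and 4.30, 3.56 and 4.10 RPKM with Aloxe3. The β-gal libraries were nearly equal and each Aloxe3 library stood clear of them. The difference was 0.39 (SE 0.0629, 95% interval 0.24 to 0.53), with an unadjusted p of 0.000331 and an adjusted p of 0.0657 from limma, just outside the threshold. Abcb4 has close relatives in its family, and reads from near-identical stretches may be lost. Voom in limma on derived reads gave 0.50 and an adjusted p of 0.00486, and over all alternatives the adjusted p ranged from 0.00486 to 0.289. Abcc2 (MRP2), which exports conjugated anions into bile, had 45.4, 47.5 and 49.8 RPKM with β-gal and 53.8, 52.5 and 47.5 RPKM with Aloxe3, where replicate 9 fell among the control values. The difference was 0.10 (SE 0.0562, adjusted p = 0.487 from limma), and it ranged from 0.07 without Aloxe3 replicate 7 to 0.16 without replicate 9.

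Among regulators 12 of 16 were tested, 8 above and 4 below 0. Nr5a2 (LRH-1), a nuclear receptor that activates Cyp8b1 and Nr0b2, had 4.81, 5.63 and 5.46 RPKM with β-gal and 5.95, 6.16 and 6.23 RPKM with Aloxe3. The groups did not overlap, with a difference of 0.18 (SE 0.0576, adjusted p = 0.291 from limma). Foxa2, a liver-enriched transcription factor, had 9.60, 9.52 and 10.3 RPKM with β-gal and 10.9, 11.04 and 13.5 RPKM with Aloxe3, a difference of 0.24 (SE 0.0785, adjusted p = 0.297 from limma), or 0.145 without replicate 9. Nr1h4 (FXR), the bile acid receptor that induces Nr0b2 and Abcb11, was singled out after its values were seen. It had 3.97, 5.48 and 5.48 RPKM with β-gal and 6.58, 5.93 and 6.14 RPKM with Aloxe3, and the difference was 0.28 (SE 0.103, adjusted p = 0.331 from limma), or 0.16 without β-gal replicate 1. β-gal replicate 1 was low for Nr1h4 and Nr5a2 and high for Abcb11. Hnf4a (0.03) and Rxra (0.01) differed little between groups, with 95% intervals of -0.113 to 0.175 and -0.076 to 0.099.

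**Figure D4:**
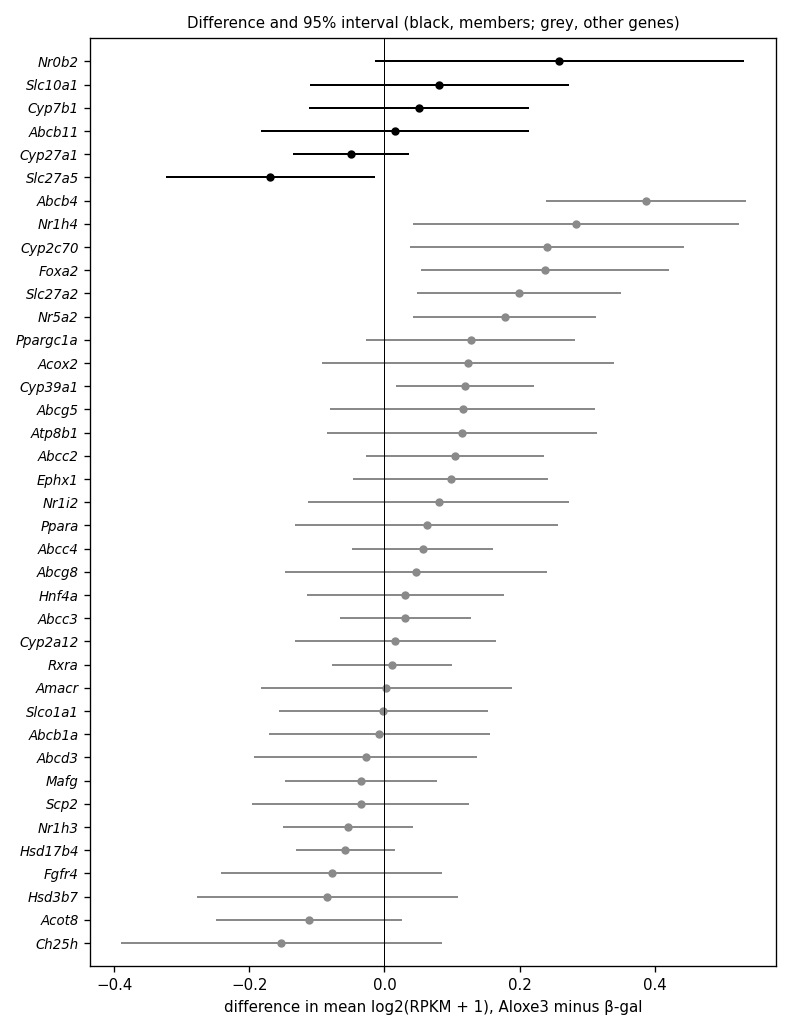
Difference in mean log2(RPKM + 1), Aloxe3 minus β-gal, with its 95% interval from limma for the 6 tested members (black) and other tested bile acid genes (grey). Among the members only the interval of Slc27a5 (-0.32 to -0.02) leaves out 0, and Abcb4 (0.24 to 0.53) lies farthest to the right of all.

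The 3 genes whose pattern over the 6 libraries was most like that of Slc27a5, the member with the smallest p, were Rnh1, 3830432H09Rik and Bloc1s1. Likeness was the Euclidean distance between profiles of log2(RPKM + 1) centred on their mean, which was 0.0471, 0.0472 and 0.0496 for these genes against a median of 0.316 over all tested genes. Their means were 152 ± 3.2 and 136 ± 11 RPKM for Rnh1, 1.32 ± 0.053 and 1.09 ± 0.2 RPKM for 3830432H09Rik, and 10.8 ± 0.24 and 9.42 ± 1.0 RPKM for Bloc1s1 (β-gal and Aloxe3, SD, n = 3 each). The profiles share their libraries and depth, and the likeness is a description.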

How the data were processed

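RNA from hepatocytes (6 libraries) was selected for poly-A and sequenced as single reads of 50 bases. Per the labels and the study's methods, the authors aligned reads with STAR 2.0.4b to GRCm38.p2, took gene counts from unique alignments with featureCounts 1.4.5 (Subread), and deposited RPKM values. The step from counts to RPKM is not given in the sources used here. Strand marking is not described, and near-identical genes can lose reads.

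Identifiers were matched to GENCODE M21 (GRCm38); 40254 had a symbol and 1134 did not. Library sizes were derived from the whole-number steps of the values, and reads from exon lengths for 16539 genes (all members with reads except Slc27a5 and Slc10a1) or from the smallest length that gives whole reads (within 0.02) for 8450, which leaves a common factor open. Values were tested as log2(RPKM + 1), which understates changes of low genes, over the 12693 genes averaging 0.5 RPKM or more, with limma 3.58.1 in R 4.3.3 (eBayes with trend, Benjamini-Hochberg adjustment over all tested genes at 0.05). All libraries entered 1 fit, without covariates. Replicates differed by more than counting noise (chi-square per degree of freedom 3.47 to 9.82). Scripts were tested on simulated reads. Python 3.11.15, numpy 2.4.6, pandas 2.3.3 and matplotlib 3.10.9 were used. Motifs were searched in RefSeq start regions of GRCm38.p6.

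The members, the lists and the alternatives were chosen with earlier results of these data known. The text names all members, and of each list of other genes those past the threshold or else the pair with the smallest p, the 3 genes most like the member with the smallest p, and Aloxe3; others were named after their values were seen. Alternatives were a pseudocount of 0.1, no filter, a filter at 5 RPKM, equal medians, quantile normalization, eBayes without trend, voom on derived reads, and each library left out; leaving out Aloxe3 replicate 9 and β-gal replicate 1 together was added after seeing the data. A gene of the regulator list is counted with its list but not reported or plotted here.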

Additional observations from a re-analysis of the deposited data

How the results depend on the processing

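None of the 6 tested members passed an adjusted p of 0.05 in limma under any of the 14 alternatives, and the count at an unadjusted p under 0.05 was 1 (Slc27a5). That count was 0 when any 1 β-gal library or Aloxe3 replicate 9 was left out, and 1 without Aloxe3 replicate 8, then Nr0b2 in place of Slc27a5. Of 175 alternative fold changes of members and named genes, 170 kept their sign and side of the threshold. Abcb11 turned to -0.003 with quantile normalization, and ranged from -0.046 to 0.112 with 1 library left out. Of the other bile acid genes, 1 (Abcb4) passed with voom, at 0.496, and 7 had an unadjusted p under 0.05. Members without overlap between groups numbered 1 to 4 with 1 library left out, with 4 without Aloxe3 replicate 8, 1 without Aloxe3 replicate 7 and 2 without any other library, while 26.5% to 32.9% of all tested genes had no overlap then. The cause was not tested. Slc27a5 kept its sign (-0.234 to -0.103), as did Nr0b2 (0.128 to 0.362) and Cyp27a1 (-0.064 to -0.024). Equal medians and quantile normalization moved the median of all genes to -0.006 from 0.005. A filter at 5 RPKM left only Cyp27a1 and Slc27a5 among members. No paired analysis was possible because the groups share no replicate numbers. Depth limits Cyp8b1, Baat and Slco1b2, with at most 27 reads in a library.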

Other observations

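Export and uptake at the blood side were compared as sums within a library, chosen after their values were seen. Abcc3 (MRP3) and Abcc4 (MRP4), which return bile acids to blood, summed to 80.5 to 83.3 RPKM with β-gal and 80.3 to 87.8 RPKM with Aloxe3. The uptake carriers Slc10a1, Slco1b2, Slco1a1 and Slco1a4 summed to 1.67 to 2.0 RPKM and 1.96 to 2.13 RPKM. Ephx1, an epoxide hydrolase on the same transport list, was left out of both sums and lay at 94.1 to 113 RPKM. Other genes of that list were left out too, among them Slco2b1 (0.145 to 0.263 RPKM), Slc51a (0 to 0.049 RPKM) and Slc51b (0 to 0.442 RPKM). The ratio was 43.8 ± 5.3 with β-gal and 41.7 ± 3.5 with Aloxe3 (SD, n = 3 each), with overlapping groups. At the canaliculus Abcc2 exceeded Abcb11 9.84 ± 1.7 times with β-gal and 10.4 ± 1.1 times with Aloxe3. Among other oxysterol-related hydroxylases, Cyp46a1 lay at 0 to 0.107 RPKM over the 6 libraries. Ch25h had 0.726 to 1.24 RPKM with β-gal and 0.668 to 0.813 RPKM with Aloxe3 (log2 difference -0.153, adjusted p = 0.563 from limma). Cyp39a1 had 4.46 to 4.70 RPKM with β-gal and 4.88 to 5.19 RPKM with Aloxe3 (0.119, adjusted p = 0.33 from limma). The level of Cyp39a1 was 1.78 ± 0.11 and 1.88 ± 0.23 times that of Cyp7b1. The nuclear receptor Nr1i3 (CAR), which senses bile acids and drugs, was at 0.0211 to 0.0671 RPKM in these libraries, but most of its exon bases overlap Tomm40l on the other strand, so reads may have been lost in counting.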
